A study of Mus musculus with 6 samples.

Results

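NRF2, encoded by Nfe2l2, is a transcription factor that KEAP1 holds in the cytosol for degradation while cells are unstressed. When oxidants or electrophiles modify KEAP1, NRF2 reaches the nucleus, pairs with small MAF proteins and binds the antioxidant response element in front of genes that make, recycle and spend reducing power, while BACH1 occupies the same element as a repressor. Macrophages produce superoxide through the phagocyte oxidase, and this set of enzymes is known for limiting the damage that such oxidants do to the cell itself. The 10 targets described here, Nqo1, Gclc, Gclm, Txnrd1, Srxn1, Prdx1, Gsr, Cat, Me1 and G6pdx, were matched by gene name in the deposited count table, where each name occurred once among 54532 genes.

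RNA came from RAW264.7 cells, a wild-type mouse macrophage line, sorted by FACS after growth alone (3 libraries, replicates A, B and C) or after they had shared a culture with TTJ cells for 48 h (3 libraries, replicates A, B and C). TTJ cells are Tsc2-null and were derived from an angiomyolipoma in mice modelling tuberous sclerosis complex. Both cell lines were kept in DMEM with serum. The sorting gate and the passage or clone of either line were not given in the sources used here. No label ties a replicate to a culture of its own, and p-values here reflect only how far these libraries spread, part of which may be technical.

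Total counts ran from 14329487 to 17358280 per library. All 12 markers on a list of macrophage genes were detected in both groups, and their summed level ran from 11886 to 11989 CPM alone and from 12545 to 12888 CPM in coculture, most of it from Lyz2, where CPM is counts scaled to 1e+06 counts of the library after TMM scaling. Of the 12, 6 rose and 3 fell: Aif1 rose 5.52-fold, Fcgr1 2.25-fold and Itgam 1.86-fold, and the falls were those of Tyrobp, Spi1 and Cd68 (log2 -0.30, -0.23 and -0.10). Markers of renal and simple epithelium summed to between 0 and 0.115 CPM alone and to between 360.3 and 415.7 CPM in coculture. Of those 15 markers, 3 had any count alone and 12 had one in coculture. Cdh16, a kidney cadherin, Krt8 and Krt18, keratins of simple epithelia, were at 0 counts alone and at 122, 91.7 and 21.3 CPM in coculture, while Epcam and Lhx1 were at 0 counts in all 6 libraries. A list of 12 mesenchymal markers summed to between 1.90 and 2.13 CPM alone and to between 59.2 and 64.0 CPM in coculture. Col5a1, Timp3 and Cav1 made up most of that sum, at 25.6, 17.9 and 15.2 CPM, whereas Col3a1 and Pdgfra were at 0 counts in all 6 libraries. Mitochondrial transcripts took 1.65% ± 0.0995 of counts alone and 1.39% ± 0.0377 in coculture (SD, n = 3). The part of this shift and of RNA from other cells in the values below was not tested. In bulk RNA, fewer cells of a type and less RNA per cell cannot be told apart.

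Sequences in front of the members are shown first because the antioxidant response element is read there. RefSeq windows on GRCm38.p6, from 250 bases before to 50 bases after an annotated start, were matched for 8 of the 10 members (all but Gclc and Gsr). These members had 11 windows, since Me1 and Txnrd1 have more than 1 annotated start, and a match in any window was counted. TGACNNNGC, the core of the antioxidant response element, was searched on both strands and found in 6 of these 8, against 14.0% of 27025 genes with such a window. In Srxn1 that match lies after the start. The stretch printed for Srxn1 is instead its match to TGANTCAGC, described below, and its capital bases do not match TGACNNNGC. In Txnrd1 the match lies in 1 of its 3 windows, at a start inside the gene's coordinates. The letters TGANTCAGC fix more bases but allow any base after TGA. They were chosen after seeing the sequences and were found in Srxn1, Prdx1 and Me1, against 1.37% of all genes. In these 3 genes they contain the AP-1 letters TGAGTCA or TGACTCA, so a match to one overlaps a match to the other. TGAGTCA occurs in 5.95% of all genes' windows on either strand. A match describes letters and is not a measured binding site. The members were picked as known NRF2 targets, so their excess over all genes may come from that choice and is no test. The 49-base stretches below are read 5′ to 3′ on the strand of the gene, with the 9 matched bases in capitals; in Prdx1, Gclm, Txnrd1 and G6pdx the match lies on the opposite strand and appears as its reverse complement.
Srxn1, chr2:152105459-152105507, plus strand: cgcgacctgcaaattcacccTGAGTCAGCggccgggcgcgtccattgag
Prdx1, chr4:116685446-116685494, plus strand: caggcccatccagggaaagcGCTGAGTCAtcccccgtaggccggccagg
Me1, chr9:86695892-86695940, minus strand: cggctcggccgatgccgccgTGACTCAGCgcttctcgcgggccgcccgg
Gclm, chr3:122245403-122245451, plus strand: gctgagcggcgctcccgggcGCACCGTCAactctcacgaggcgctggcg
Txnrd1, chr10:82859094-82859142, plus strand: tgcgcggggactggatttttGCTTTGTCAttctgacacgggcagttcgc
G6pdx, chrX:74428909-74428957, minus strand: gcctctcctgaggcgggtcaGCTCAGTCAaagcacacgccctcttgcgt

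The Srxn1 window held the most matches of the 8 genes. The 250 bases before the start are printed because several matches can be seen in them. Capitals mark TGANNNNGC, a looser form of the element that 45.0% of all genes hold, and TGAGTCA, on either strand.
Srxn1, chr2:152105274-152105523, plus strand: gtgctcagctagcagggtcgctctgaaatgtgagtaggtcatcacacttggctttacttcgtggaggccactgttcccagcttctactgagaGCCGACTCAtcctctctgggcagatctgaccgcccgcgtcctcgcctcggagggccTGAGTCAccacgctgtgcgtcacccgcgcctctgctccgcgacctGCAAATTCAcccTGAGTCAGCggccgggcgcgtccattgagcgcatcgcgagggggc
The Nqo1 window is printed as an example without any of these letters, and the Cat window held none of them either. Bases further than 250 before an annotated start were not searched, so an element there would be missed.
Nqo1, chr8:107403206-107403455, minus strand: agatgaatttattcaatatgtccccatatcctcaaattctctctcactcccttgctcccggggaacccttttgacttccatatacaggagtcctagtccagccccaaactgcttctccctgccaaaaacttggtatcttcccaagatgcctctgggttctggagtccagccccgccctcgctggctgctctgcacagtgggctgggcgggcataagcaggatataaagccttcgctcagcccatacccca

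Coculture did not move the 10 targets one way. Nqo1, Gclm, Gsr and Me1 rose, Gclc, Txnrd1 and G6pdx fell, and Srxn1, Prdx1 and Cat did not pass the threshold (edgeR quasi-likelihood test, Benjamini-Hochberg adjusted p under 0.05 over all 12972 genes tested). Over all genes tested 36.9% passed, 21.7% higher and 15.2% lower. Of the 10 members 1, Nqo1, was called with a change of at least 2-fold, against 9.79% of all genes tested. Nqo1 was close to absent in lone cells and passed the filter on low counts through the cocultured libraries alone, so its direction was fixed. The other 9 members stood at 10 CPM or more in lone cells, and 3 of them rose and 3 fell. Among the 8731 genes at that level 37.6% passed, 16.5% higher and 21.1% lower. That balance turned when those genes were fitted and scaled by themselves, with 1656 higher and 1431 lower, and 3 members higher and 2 lower. The changes were small. The median absolute log2 change of the 10 members was 0.17, equal to the 0.17 of all genes tested, and their median signed change was 0.04 against 0.0029. Without Nqo1 the median of the other 9 was -0.02. Summed over the 10 members, the level was 1841, 1893 and 1841 CPM alone and 1802, 1739 and 1749 CPM in coculture. The groups did not overlap for 7 of the 10 members, against 47.1% of all genes tested.

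**Figure D1:**
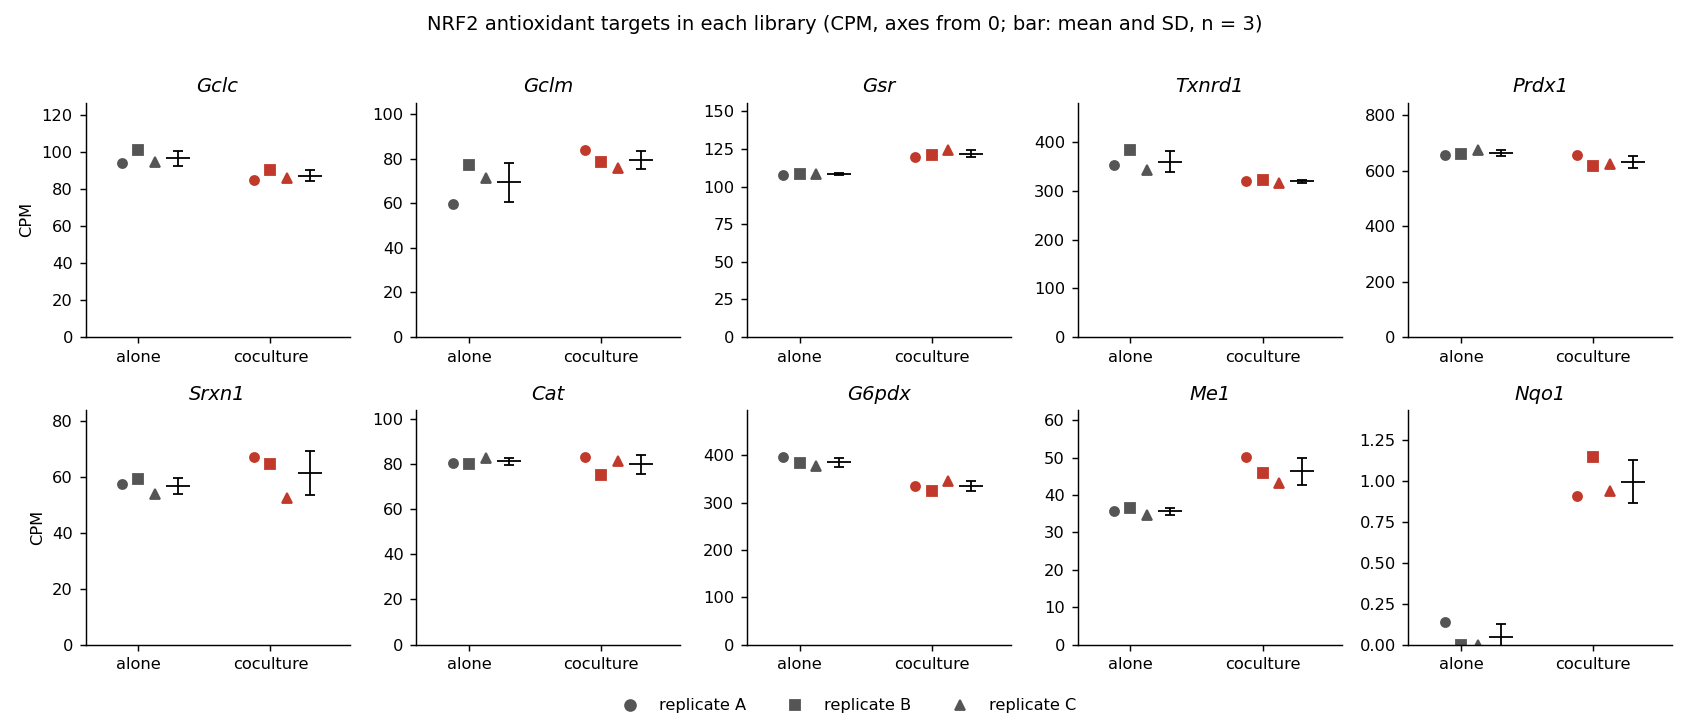
CPM of each of the 10 members in each library, with replicates A, B and C as circle, square and triangle, lone cells in grey and cocultured cells in red, and the mean and SD (n = 3) as a bar; each axis starts at 0. Nqo1, Me1 and Gsr are higher and G6pdx, Txnrd1, Gclc and, without a call, Prdx1 lower in all 3 cocultured libraries. Except for Nqo1, which was close to absent in lone cells, the amounts are small beside the levels themselves.

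Glutathione synthesis is limited by glutamate-cysteine ligase, whose catalytic subunit is encoded by Gclc and whose modifier subunit is encoded by Gclm. Gclc (ENSMUSG00000032350, chromosome 9, 77754535 to 77794485 on mm10) was at 94.0, 101 and 94.6 CPM alone and at 85.0, 90.6 and 86.0 CPM in coculture. All 3 cocultured libraries were below the lone ones, from 96.7 ± 4.07 to 87.2 ± 2.97 CPM (SD, n = 3), and Gclc fell 1.11-fold (log2 -0.15, SE 0.0520, adjusted p = 0.0269). Gclm (ENSMUSG00000028124, chromosome 3, 122245557 to 122270732) was at 59.7, 77.0 and 71.4 CPM alone and at 84.0, 78.3 and 75.9 CPM in coculture. The groups overlapped, since lone replicate B lay above cocultured replicate C. From 69.4 ± 8.81 to 79.4 ± 4.14 CPM Gclm rose 1.14-fold (log2 0.19, SE 0.0705, adjusted p = 0.0350). Both calls were fragile. That of Gclc was lost without lone replicate B (adjusted p = 0.146), cocultured replicate A (0.0919) or cocultured replicate C (0.0963), and over the 19 alternatives it ran from 0.0185 to 0.146. That of Gclm was lost without lone replicate A (adjusted p = 0.227, log2 0.10), cocultured replicate A (0.186) or cocultured replicate B (0.0514), within a range of 0.00624 to 0.227.

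Glutathione is returned to its reduced form by glutathione reductase, encoded by Gsr (ENSMUSG00000031584, chromosome 8, 33652523 to 33698163). Gsr was at 108, 108 and 109 CPM alone and at 119.9, 121 and 124 CPM in coculture. It had the tightest lone replicates of the 10 members, with an SD of 0.512% of the mean, and every cocultured library lay above them. Gsr rose 1.13-fold, from 108 ± 0.553 to 122 ± 2.41 CPM (log2 0.17, SE 0.0469, adjusted p = 0.00484).

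In the thioredoxin branch, thioredoxin reductase reduces thioredoxin, thioredoxin reduces peroxiredoxin, and sulfiredoxin rescues peroxiredoxin that has been overoxidised. Txnrd1, the cytosolic reductase (ENSMUSG00000020250, chromosome 10, 82833951 to 82897712), was at 353, 384 and 342 CPM alone and at 319.9, 322 and 315 CPM in coculture. Lone replicate B stood above the other lone libraries, and the cocultured libraries lay below all of them. Txnrd1 fell 1.13-fold, from 359.8 ± 22.0 to 319 ± 3.63 CPM (log2 -0.17, SE 0.0443, adjusted p = 0.00308). Prdx1, a cytosolic peroxiredoxin (ENSMUSG00000028691, chromosome 4, 116685544 to 116700822), was at 657, 662 and 676 CPM alone and at 656, 616 and 625 CPM in coculture. The groups were just separate, but the difference did not pass (log2 -0.07, SE 0.0374, adjusted p = 0.136), with a 95% interval from -0.15 to 0.0046.

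Srxn1, sulfiredoxin (ENSMUSG00000032802, chromosome 2, 152105516 to 152111376), was at 57.4, 59.4 and 53.9 CPM alone and at 67.1, 64.7 and 52.4 CPM in coculture. Cocultured replicates A and B were above every lone library, whereas cocultured replicate C was below them all. Srxn1 did not pass (log2 0.11, SE 0.0753, adjusted p = 0.284, 95% interval -0.05 to 0.26). Without cocultured replicate C its log2 change was 0.22 and passed (adjusted p = 0.0172), within a range of 0.0172 to 0.782 over the alternatives. Cat, the peroxisomal catalase that splits hydrogen peroxide (ENSMUSG00000027187, chromosome 2, 103453849 to 103485160), was at 80.6, 80.0 and 82.8 CPM alone and at 82.9, 75.0 and 81.4 CPM in coculture. The groups overlapped and the difference did not pass (log2 -0.02, SE 0.0546, adjusted p = 0.775). Its 95% interval, from -0.14 to 0.09, held changes of either sign.

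These reductases spend NADPH. G6pdx encodes glucose-6-phosphate dehydrogenase, which opens the pentose phosphate pathway, and Me1 encodes the cytosolic malic enzyme; both make NADPH. G6pdx (ENSMUSG00000031400, chromosome X, 74409483 to 74429194) was at 396, 384 and 377 CPM alone and at 336, 324 and 345 CPM in coculture. The 3 cocultured libraries were all lower, and G6pdx fell 1.15-fold, from 386 ± 9.48 to 335 ± 10.3 CPM (log2 -0.20, SE 0.0408, adjusted p = 0.000294). Me1 (ENSMUSG00000032418, chromosome 9, 86581371 to 86695953) was at 35.8, 36.7 and 34.8 CPM alone and at 50.1, 45.8 and 43.1 CPM in coculture. Every cocultured library was higher, and Me1 rose 1.30-fold, from 35.7 ± 0.944 to 46.4 ± 3.54 CPM (log2 0.37, SE 0.0720, adjusted p = 0.000163). This was the largest change among the 9 members that lone cells expressed. G6pdx overlaps Ikbkg on the opposite strand, which had 2257 counts alone and 2140 in coculture against 18723 and 15773 for G6pdx, and no source used here says whether counting used strand.

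Nqo1 encodes the quinone reductase that is often read as a marker of NRF2 activity (ENSMUSG00000003849, chromosome 8, 107388225 to 107403206). It had 2, 0 and 0 counts alone and 13, 18 and 16 counts in coculture. All 3 cocultured libraries were above all 3 lone ones, at a level of 0.999 ± 0.130 CPM. The ratio of the summed counts, scaled to library size, was 24.3 with an exact conditional binomial 95% interval of 6.36 to 206, which covers counting error only (edgeR adjusted p = 3.74e-05). Since Nqo1 passed the low count filter only through the cocultured libraries, its direction was fixed before these values were computed. The fitted log2 change was 4.36 and became 7.03 without lone replicate A, which held both lone counts. Beside it, the epithelial markers went from at most 0.115 to at least 360.3 CPM in the same libraries. Whether the Nqo1 transcripts came from RAW264.7 cells was not tested.

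**Figure D2:**
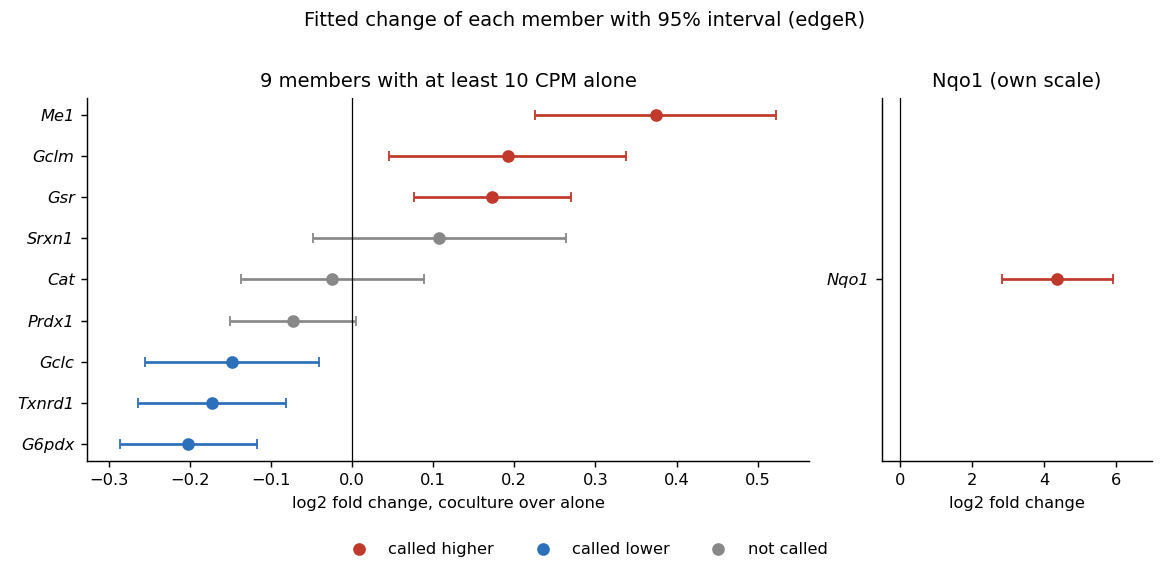
Fitted log2 fold change of each member, coculture over alone, with its 95% interval from the edgeR fit; red was called higher, blue lower and grey not called, and Nqo1 is drawn on a scale of its own. The 9 members expressed in lone cells run from -0.20 for G6pdx to 0.37 for Me1.

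Gclm rose while Gclc fell, Me1 rose while G6pdx fell, and Gsr rose while Txnrd1 fell. Ratios within a library, where the scaling between libraries cancels, show these pairs. The pairs were chosen after the values were seen, so the ratios are a description without a test. The ratio of Gclm to Gclc on the FPKM scale (counts scaled to gene length and library total) was 0.380, 0.455 and 0.452 alone and 0.592, 0.518 and 0.528 in coculture. The mean ratio was 27.3% higher, and the groups did not overlap. For Me1 to G6pdx the ratio was 0.0724, 0.0764 and 0.0738 alone and 0.119, 0.113 and 0.1001 in coculture. Its mean was 49.4% higher, again without overlap. For the reductases, Gsr to Txnrd1 was 0.784, 0.724 and 0.818 alone and 0.964, 0.966 and 1.02 in coculture, so that the mean rose by 26.7%. Its level near parity rests on the annotated gene lengths. In CPM, Txnrd1 stayed above Gsr in coculture, at 319 against 122. The ratio of Srxn1 to its substrate's gene Prdx1 overlapped between the groups, at 0.0924 ± 0.00571 alone and 0.105 ± 0.0124 in coculture.

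**Figure D3:**
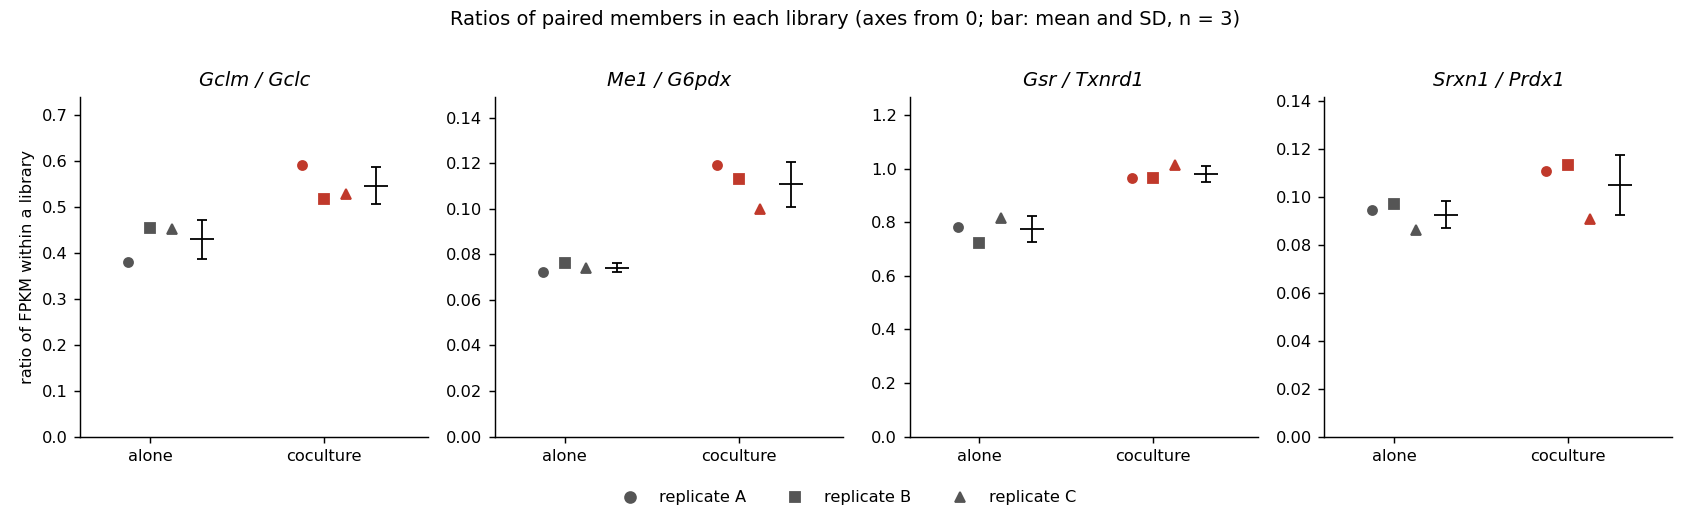
Ratio of FPKM between paired members in each library, with the mean and SD (n = 3) as a bar and axes from 0. Gclm to Gclc, Me1 to G6pdx and Gsr to Txnrd1 are higher in every cocultured library than in any lone one, while Srxn1 to Prdx1 overlaps.

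Per gene length, the order of the members was nearly kept. In lone cells the FPKM level was highest for Prdx1 (218 ± 3.29), followed by G6pdx (125 ± 3.13), Txnrd1 (50.7 ± 3.05), Gsr (39.2 ± 0.193), Cat (31.0 ± 0.574), Gclc (25.6 ± 1.05), Srxn1 (20.2 ± 0.979), Gclm (11.0 ± 1.39), Me1 (9.27 ± 0.238) and Nqo1 (0.0295 ± 0.0511). Neighbours in this order were separate in every library except Gclm and Me1, whose ranges overlapped. In coculture the order of means was the same, from Prdx1 at 208 ± 6.64 to Nqo1 at 0.643 ± 0.0844 FPKM. There Txnrd1 (45.0 ± 0.554) and Gsr (44.2 ± 0.869) were no longer separate, nor were Gclc (23.1 ± 0.821) and Srxn1 (21.8 ± 2.80), or Gclm (12.6 ± 0.650) and Me1 (12.0 ± 0.913).

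**Figure D4:**
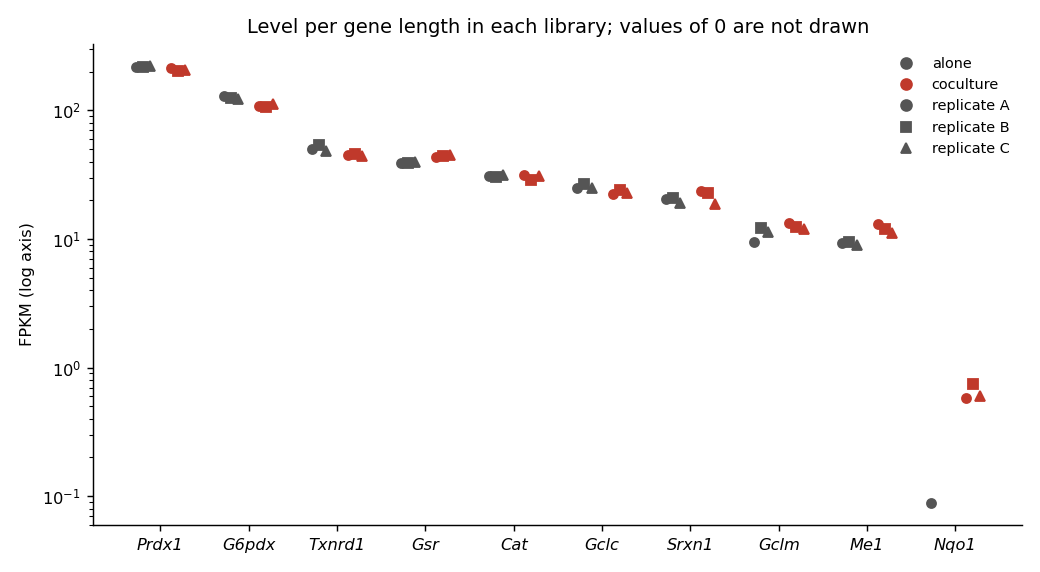
FPKM of each member in each library on a log axis, ordered by the mean in lone cells, with lone libraries in grey and cocultured libraries in red; the 2 lone libraries in which Nqo1 was at 0 are not drawn. Prdx1 stands at 218 FPKM and Nqo1 at 0.0295 FPKM in lone cells.

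The genes that regulate NRF2 were measured in the same fit. Of 13 such genes 2 rose and 3 fell, with a median log2 change of -0.08, a share near the 36.9% called over all genes tested. Nfe2l2 itself was at 177, 171 and 183 CPM alone and at 150.2, 150.4 and 142 CPM in coculture, and fell 1.20-fold (log2 -0.26, SE 0.0466, adjusted p = 6.32e-05). Bach1, the repressor, fell 1.24-fold from 45.7 ± 2.87 to 36.8 ± 0.548 CPM (adjusted p = 0.000862). Sqstm1, whose product p62 draws KEAP1 into autophagy and which NRF2 also induces, fell 1.21-fold from 553 ± 9.19 to 456 ± 24.9 CPM (adjusted p = 6.21e-06). Keap1 was at 95.1 ± 3.60 and 100.5 ± 2.91 CPM and did not pass (log2 0.08, adjusted p = 0.225). The small MAF genes differed: Maff rose 1.87-fold to 6.16 ± 0.113 CPM and Mafk rose by a log2 of 0.22 (adjusted p = 0.0113), a call lost without lone replicate C (0.0529) or cocultured replicate B (0.0539). Mafg was not called (log2 -0.08, adjusted p = 0.245).

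Other genes known as NRF2 targets moved in both directions too. Of 28 on the list 25 were tested, 10 rose and 3 fell, with a median log2 change of 0.06, against 21.7% higher and 15.2% lower over all genes tested. The 10 include Mgst1, which was at 0 counts alone and could only rise. At 10 CPM or more in lone cells stood 22 of the 25, of which 8 rose and 3 fell. Among all genes at that level 16.5% rose and 21.1% fell. Slc48a1, a haem transporter, rose 2.05-fold from 51.0 ± 2.63 to 104 ± 4.34 CPM (adjusted p = 1.14e-13). Hmox1, the inducible haem oxygenase, was at 127, 129 and 134 CPM alone and at 184, 187 and 201 CPM in coculture, and rose 1.47-fold (adjusted p = 5.70e-10). Osgin1, an oxidative stress response gene, rose 1.77-fold to 13.5 ± 1.57 CPM. The 3 that fell were Idh1, cytosolic isocitrate dehydrogenase, which went from 374 ± 17.7 to 239 ± 10.1 CPM (1.57-fold lower), Akr1a1, an aldehyde reductase (log2 -0.24), and Pgd, the dehydrogenase that follows G6pdx in its pathway (log2 -0.12, adjusted p = 0.0157). The call of Pgd was lost without lone replicate A (0.0672), cocultured replicate A (0.0544) or cocultured replicate C (0.0764). Slc7a11, the cystine importer that feeds glutathione synthesis, was at 55.3 ± 5.34 and 51.2 ± 1.35 CPM and did not pass (log2 -0.11, adjusted p = 0.230).

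Around Txnrd1, Prdx1 and Srxn1, 6 of 20 thioredoxin and peroxiredoxin genes rose and 4 fell. Over all genes tested 21.7% were higher and 15.2% lower. The 6 include Sesn3, which passed the low count filter only through the cocultured libraries and could only rise. Of the 17 at 10 CPM or more in lone cells 4 rose and 4 fell. For all genes at that level the shares were 16.5% higher and 21.1% lower. Glrx, a glutaredoxin, rose 2.07-fold from 44.8 ± 2.24 to 92.9 ± 5.82 CPM, Msrb1, a methionine sulfoxide reductase, rose 1.45-fold to 76.8 ± 2.41 CPM, and Txnrd3, a relative of Txnrd1, rose 2.46-fold to 7.18 ± 0.639 CPM. Sesn1, a sestrin, fell 1.65-fold from 53.2 ± 2.99 to 32.3 ± 1.84 CPM, and Sesn2 fell by a log2 of 0.41. The other falls were those of Prdx2 (log2 -0.14) and Glrx3 (log2 -0.14, adjusted p = 0.0316), and each was lost in some fits with a library left out, with adjusted p up to 0.0914 and 0.149. Txn1, the substrate of Txnrd1, was at 324 ± 14.3 and 303 ± 9.83 CPM and did not pass (log2 -0.10, adjusted p = 0.0827). Among 21 tested glutathione genes 7 rose and 1 fell, against 21.7% higher and 15.2% lower over all genes tested. The 7 include Gpx3, Gpx8, Gstt1 and Mgst1, which passed the low count filter only through the cocultured libraries and could only rise. Gstp1, a glutathione S-transferase, rose 3.81-fold from 7.08 ± 0.978 to 26.9 ± 2.66 CPM. Gpx3, the secreted glutathione peroxidase, was at 0.454 ± 0.247 and 5.47 ± 0.670 CPM and passed the low count filter only through the cocultured libraries. Gsto1 rose 1.20-fold to 51.5 ± 3.89 CPM, a call lost without cocultured replicate A (adjusted p = 0.0585), and Gstz1 fell 1.47-fold to 19.5 ± 0.503 CPM. At 10 CPM or more in lone cells stood 13 of these glutathione genes, of which 2 rose and 1 fell. The shares over all genes at that level are the 16.5% higher and 21.1% lower given above.

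Of 18 tested genes on a list for NADPH supply 8 fell and 3 rose, against 15.2% lower and 21.7% higher over all genes tested. The list also holds genes whose products do not make NADPH themselves, such as Nadk and Rpe. At 10 CPM or more in lone cells stood 16 of the 18, of which 8 fell and 2 rose. The shares over all genes at that level were 21.1% lower and 16.5% higher. Idh1 and Pgd, described above, are on this list too. Nadk, the kinase that makes NADP, went from 438 ± 8.25 to 304 ± 6.52 CPM (1.44-fold lower, adjusted p = 4.66e-11). Mthfd2, a mitochondrial folate enzyme, went from 209.96 ± 18.6 to 149.97 ± 4.90 CPM (1.40-fold lower). The 3 that rose were H6pd, the reticular counterpart of G6pdx, which rose 1.43-fold to 53.1 ± 3.54 CPM, Rpe (log2 0.25) and Me3, which was at 0 counts alone and could only rise. Genes of the oxidase that produces superoxide were measured as well. Of all genes at 10 CPM or more in lone cells 21.1% fell. Of 10 genes at that level for superoxide dismutases and the phagocyte oxidase, 5 fell. Cybb, its catalytic subunit, was at 1218, 1132 and 1241 CPM alone and at 887, 815 and 862 CPM in coculture, and fell 1.40-fold (adjusted p = 2.48e-10). Rac2 and Ncf4, a GTPase and a cytosolic subunit of the oxidase, fell 1.21-fold and 1.15-fold, and Ncf1 by a log2 of 0.16. Sod1, the cytosolic superoxide dismutase, fell 1.21-fold to 199 ± 2.50 CPM. Whether any of these lists differed from the 10 members was not tested.

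**Figure D5:**
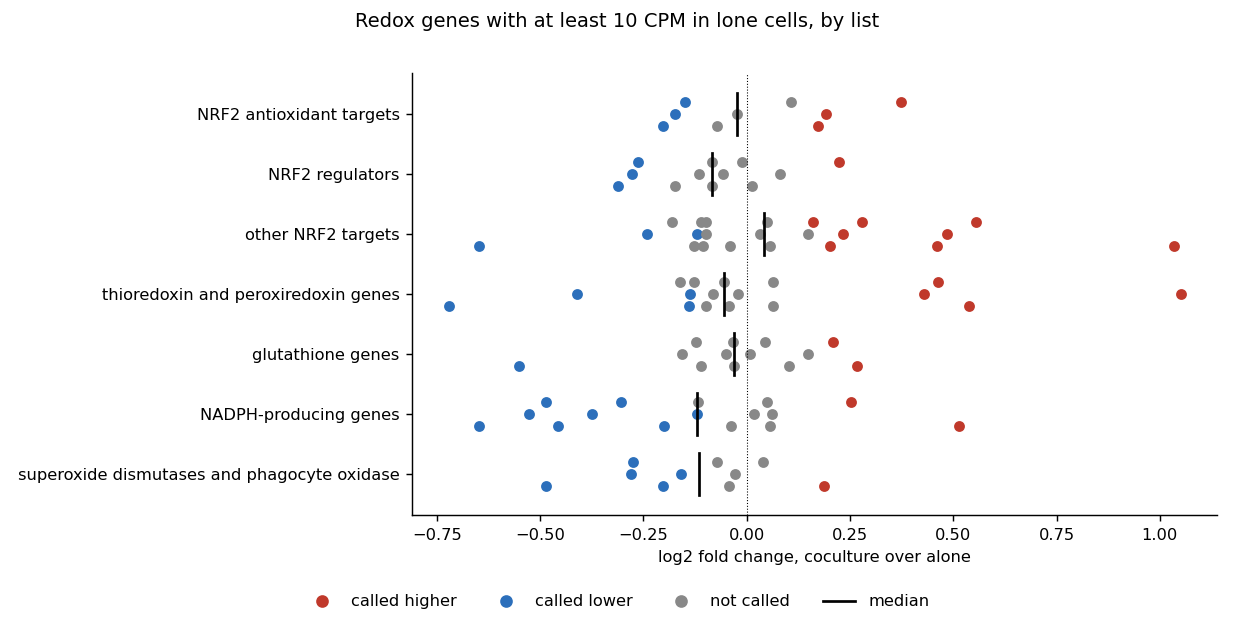
Log2 fold change, coculture over alone, of the tested genes at 10 CPM or more in lone cells, by list; each point is a gene (red called higher, blue lower, grey not called) and the black line is the median of the list. The 9 NRF2 targets drawn span -0.20 to 0.37, with as many genes called higher as lower. On the list labelled NADPH-producing, 8 of 16 genes were called lower, and not all genes on it make NADPH themselves. Among all genes at that level 16.5% were called higher and 21.1% lower. Differences between lists were not tested.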

How the data were processed

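The authors deposited raw counts per gene and FPKM values of the same 6 libraries, with gene annotation beside them, per the file headers. Per the labels' protocols, messenger RNA was selected with poly-T beads and reverse transcribed with random hexamers. Build mm10, edgeR 3.22.5 and DESeq2 1.20.0, beside featureCounts 1.5.0-p3 and HISAT2 2.0.5, appear in the submitters' processing notes without roles. Deposited FPKM values were proportional to count over length and depth, with a factor of 0.996 to 1.00 per library. 

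Counts were fitted with edgeR 4.0.16 (R 4.3.3), TMM, filterByExpr by group (12972 genes) and a single group term. The SE is the absolute log2 change over the square root of F. Within each group the libraries differed beyond sampling noise (chi-square per degree of freedom 2.98 to 4.57). Alternatives are other scalings, filters, gene sets, a replicate block, each library left out, DESeq2 1.42.0, limma-voom and limma 3.58.1 on log2(FPKM + 1) or log2(FPKM + 0.1); FPKM fold changes understate low genes. The fit was tested on simulated data. Exact permutation of 3 against 3 cannot go below p = 0.1 and was not used.

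The members and lists were chosen with earlier results of these data known. Named were the 10 members, Nfe2l2, Keap1, Bach1, Sqstm1, Hmox1, Slc7a11 and Txn1, markers, and per list up to 4 called genes with the largest change, groups apart and 5 CPM or more in the higher one. Mafk, Mafg, Akr1a1, Pgd, Sesn2, Prdx2, Glrx3, Rpe, Me3, Ncf1, markers other than Cdh16, Krt8 and Krt18, and the genes under other observations, were named after their values were seen. A result on the oxidase list is not reported here. There were 0 columns of other samples and 0 blank rows.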

Additional observations from a re-analysis of the deposited data

How the results depend on the processing

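Over 19 alternatives, Nqo1 (where it was tested), Gsr, Txnrd1, G6pdx, Me1 and Prdx1 kept their direction and their side of the threshold. Of 186 member results under alternatives 171 did so. Among genes with at least 1 and at least 10 CPM alone Gclc was at a log2 of -0.13 (adjusted p = 0.0548) and -0.12 (0.0710), and it was at -0.14 (0.0552) in limma on log2(FPKM + 1) with a mean FPKM of at least 1. Gclm was at 0.19 (adjusted p = 0.143), 0.20 (0.143) and 0.19 (0.153) in limma on log2(FPKM + 1), on log2(FPKM + 0.1) and with the FPKM minimum. With that minimum 2 members were called higher in place of 4, since Gclm was not called and Nqo1, below the minimum, was not tested. Cat turned to 0.0028 among genes with at least 10 CPM alone. With each library left out, the log2 change ran from -0.18 to -0.12 for Gclc, from 0.10 to 0.27 for Gclm, from 0.038 to 0.22 for Srxn1 and from -0.055 to 0.015 for Cat (the latter without cocultured replicate B), and 3 to 5 members were called higher and 2 to 3 lower. The cause of these shifts was not tested. Over all genes 2819 were called higher, and 1656 (with 1431 lower) among genes with at least 10 CPM alone and 1707 with the FPKM minimum, where fewer genes were tested. Counts on the lists moved by more than 1.5 times as follows: regulators higher from 2 to 1 and lower from 3 to 5, thioredoxin genes lower from 4 to 2, and glutathione genes higher from 7 to 3 or 2 by level alone and lower from 1 to 2.

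Same-lettered libraries did not deviate together (r of 0.0014, 0.020 and 0.035 across genes), and not every library correlated best with its own letter. With the replicate block 2815 genes were called higher and 1951 lower in place of 1974, and no member's call changed. Depth limits Nqo1, which had 2 counts in all alone and 47 in coculture.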

Other observations

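Several redox genes that lone cells hardly expressed were detected in coculture, as Nqo1 was. Me3, a mitochondrial malic enzyme, had 0 counts alone and 1.12 ± 0.0975 CPM in coculture, and was at least 18.3-fold higher with 3 counts over the lone group as the floor. Gpx8, a peroxidase of the endoplasmic reticulum, had 0 counts alone and 1.70 ± 0.358 CPM (at least 27.2-fold higher), and Mgst1, a microsomal glutathione transferase, had 0 counts alone and 1.20 ± 0.311 CPM (at least 19.6-fold higher). Sesn3, a sestrin, had 2 counts alone and 121 in coculture; scaled to library size the ratio was 62.5 (exact conditional binomial 95% interval 16.9 to 522, counting error only). Gstt1, a glutathione transferase, went from 0.285 to 4.49 ± 0.533 CPM. Because lone cells alone would not have carried these genes past the filter on low counts, a rise was the sole possible direction. The epithelial markers Cdh16 and Krt8 went from 0 counts to 122 and 91.7 CPM in the same libraries. The source of these transcripts was not tested. In total 688 genes with 0 counts alone reached 10 or more in coculture, and they took 0.294% ± 0.0172 of the counts of cocultured libraries.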
